A study of Mus musculus with 16 samples.

Results

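MYC and the genes of ribosome assembly were followed in dispersed mouse islet cells after Cre-mediated recombination of Grp78. The set holds 36 genes chosen by symbol: Myc, its partner Max, and 34 genes for nucleolar and pre-rRNA processing proteins. All 36 were found among the 25105 genes of the expression table. MYC is a transcription factor that binds DNA as a dimer with MAX, often at the E-box hexamer, and genes for nucleolar proteins are among its best-known targets. In the nucleolus, RNA polymerase I makes one long ribosomal RNA precursor, which small nucleolar ribonucleoproteins (snoRNPs) modify and which assembly factors cut and fold into the small (40S) and large (60S) subunits. Beta cells translate large amounts of proinsulin, so their ribosome supply and the load on the endoplasmic reticulum (ER), whose main chaperone GRP78 is encoded by Hspa5 (Grp78), are linked.

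The cells were primary islet cells of adult mice with genotype Grp78 flox/flox, dispersed and kept at 15 mM glucose for 72 hours. Each of 4 islet preparations, F1 and F2 (female) and M1 and M2 (male), each named for a pair of animals, was divided among 4 groups with 4 libraries each: Ad-LacZ (a control adenovirus with vehicle, DMSO), Ad-Cre (an adenovirus expressing Cre recombinase, with vehicle), and both viruses with a pan JNK inhibitor, JNK-IN-8, from the start. All groups carried the floxed alleles and an adenovirus, none was untransduced, and the virus is not restricted to beta cells. Pooled polyadenylated RNA of the whole culture was sequenced, so fewer cells of a type and less RNA per cell cannot be told apart. Values are RPKM, a read density that takes exon length and library size into account.

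Depth read back from the steps of the low values was 7.7 to 25.5 M reads (M, mega) per library, and a member had at least 114 reads in every library. The shallowest library, Ad-Cre + JNK inhibitor F2, also has another run and lane in its label than the other 15. Hspa5 was 438 ± 49 RPKM (SD, n = 4) in Ad-LacZ and 1264 ± 231 RPKM in Ad-Cre, whose label reads knockdown. Its RPKM counts reads over the whole gene, and recombination removes only some exons, so this value does not measure the deletion. Directions below therefore refer to libraries labelled Ad-Cre. Beta cell markers were abundant in all libraries, with 10 markers summing to 33368 to 85013 RPKM, while 10 acinar markers summed to at most 2.97 RPKM.

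Promoter sequences are shown first, because an E-box is the site through which MYC and MAX could act on these genes. Of the 36 genes, 30 had a RefSeq promoter window (250 bases before to 50 after the start, GRCm38.p6). The E-box letters CACGTG, which read the same on both strands, were in 7 of these 30 windows (23.3%): Max, Nop2, Wdr43, Pes1, Utp20, Mybbp1a and Imp4. The share was 8.1% of 27025 genes with a window and 12.0% of the 9462 of them above 1 RPKM in at least 4 libraries. The AP-1 letters TGAGTCA, of interest because JNK acts on JUN, were on neither strand of the 30 windows and in 5.9% of all windows. The letters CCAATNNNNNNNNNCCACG of the ER stress response element were likewise in 0 of 30, and in 0.14% of all windows. The 150 bases upstream of the start are given below for 4 genes that were higher in both Ad-Cre comparisons. Nop2 (chr6:125131733-125131882, plus strand) and Imp4 (chr1:34439679-34439828, plus strand) hold the E-box, in capitals, while Rrp9 (chr9:106477159-106477308, plus strand) and Nop56 (chr2:130274262-130274411, plus strand) have none.
Nop2: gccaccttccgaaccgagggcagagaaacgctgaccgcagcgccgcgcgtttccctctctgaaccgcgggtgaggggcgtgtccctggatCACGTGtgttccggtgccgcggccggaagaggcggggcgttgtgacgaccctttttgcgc
Imp4: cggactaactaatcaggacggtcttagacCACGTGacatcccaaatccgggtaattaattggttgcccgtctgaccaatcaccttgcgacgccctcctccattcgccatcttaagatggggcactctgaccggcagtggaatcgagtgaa
Rrp9: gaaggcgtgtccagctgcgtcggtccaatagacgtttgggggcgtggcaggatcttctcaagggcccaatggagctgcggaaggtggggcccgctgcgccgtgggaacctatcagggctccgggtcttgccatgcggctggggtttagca
Nop56: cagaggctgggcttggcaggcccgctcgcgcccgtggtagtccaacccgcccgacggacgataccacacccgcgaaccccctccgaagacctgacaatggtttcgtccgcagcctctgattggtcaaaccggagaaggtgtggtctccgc
The E-box began 60 bases before the start of Nop2 and 121 bases before that of Imp4. The largest changes lay outside the E-box group. The 7 genes with an E-box stood at a median of 0.29 on the log2 scale for Ad-Cre against Ad-LacZ (2 called), and the 23 with a window but no E-box at 0.18 (5 called). With JNK inhibitor in both arms, the medians were 0.45 (4 of 7 called) and 0.18 (8 of 23 called). The 6 members without a window (Myc, Npm1, Fbl, Rrp12, Rrs1 and Bop1) had medians of 0.25 and 0.28, with 0 called in either comparison. Of all genes tested, 7.14% were called higher without inhibitor and 10.1% with it. E-boxes outside the window were not searched, and a role of MYC was not tested.

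The first comparison asked what followed Cre-mediated recombination of Grp78. In the libraries labelled Ad-Cre, 7 of the 36 genes rose and none fell, against Ad-LacZ (limma, Benjamini-Hochberg adjusted p under 0.05 over 11590 genes tested). The 7 were Rrp9, Wdr74, Nop56, Nip7, Nhp2, Imp4 and Nop2, all parts of the machinery that processes pre-rRNA. This is 19.4% of the set, where 7.14% of all genes tested were called higher and 9.4% lower. At an unadjusted p, 16 members (44.4%) were higher, beside 14.3% of all genes. On values scaled over all 16 libraries, the 4 Ad-Cre libraries all lay above the 4 Ad-LacZ libraries in 11 members (30.6%), beside 10.7% of all genes. Myc itself was not among them.

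Over the 36 genes the median log2 fold change was 0.23, with 29 above 0, and the median of all genes tested was -0.004. The median was positive in each preparation (F1 0.21, M1 0.12, M2 0.26 and F2 0.18). Summed RPKM of the 36 genes was 470 ± 42.1 in Ad-LacZ and 565 ± 73.6 in Ad-Cre (SD, n = 4). With the preparation as a replicate block, 12 members were called higher (33.3%), beside 15.8% of all genes. The block added Nolc1, Rrp12, Gnl3, Ppan and Mybbp1a to the same 7. With fewer libraries, calls fell among members and all genes alike. Without F2 only Rrp9 was called (2.78%, beside 0.916% of all genes higher), without M1 3 members (8.33%, beside 1.92%) and without F1 4 members (11.1%, beside 2.48%).

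**Figure D1:**
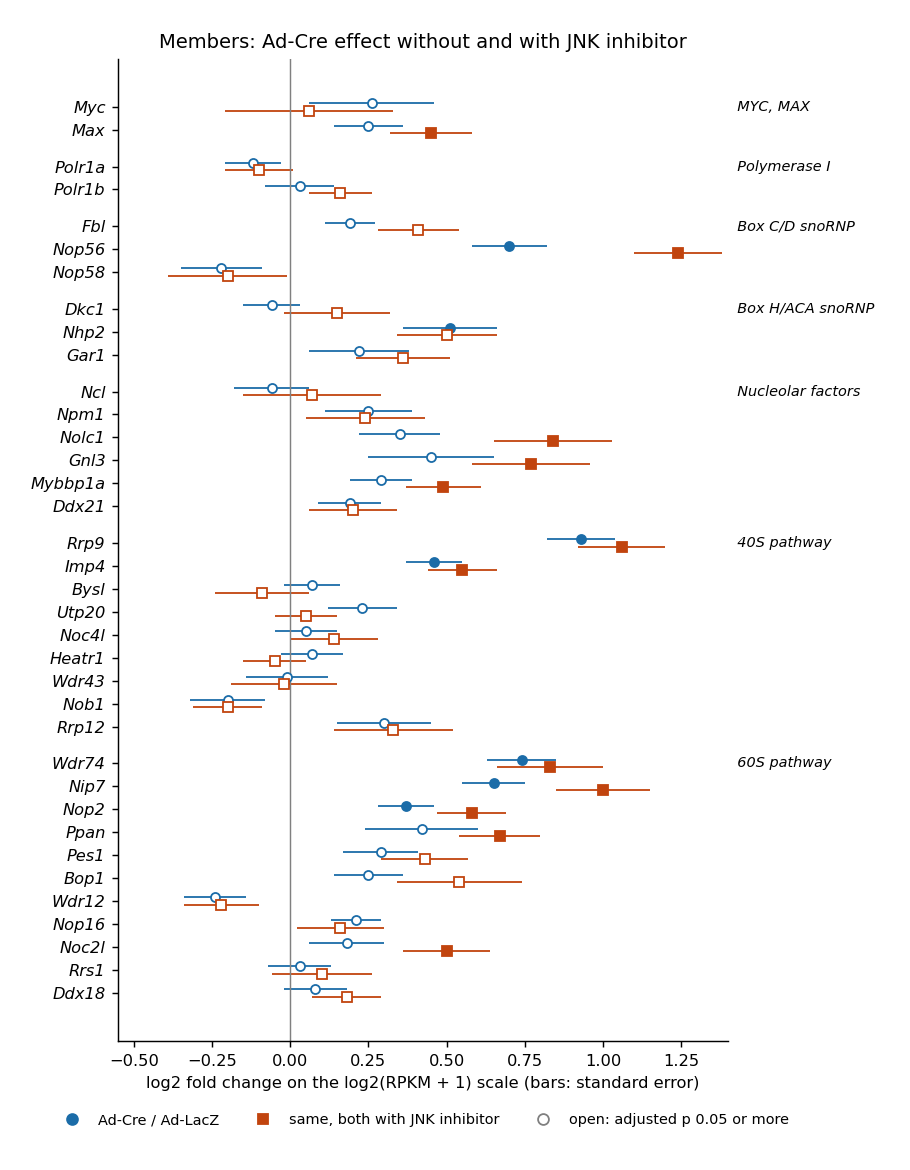
Log2 fold change of each of the 36 genes on the log2(RPKM + 1) scale, grouped by role, for Ad-Cre against Ad-LacZ (circles) and for the same viruses with JNK inhibitor in both arms (squares). Bars are standard errors and filled symbols passed adjusted p under 0.05: 7 circles and 12 squares, all to the right of 0, with Myc, polymerase I subunits, Nop58 and Wdr12 open.

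MYC and MAX came first in the order of roles. Myc was at 4.99, 5.58, 7.65 and 7.28 RPKM in Ad-LacZ and 5.11, 5.59, 13.3 and 9.14 RPKM in Ad-Cre (preparations F1, M1, M2 and F2). F1 and M1 were nearly level between viruses, M2 was highest with Ad-Cre, and the groups overlapped. The log2 fold change was 0.26 (SE 0.20, limma adjusted p = 0.418). Max, which MYC needs to bind DNA, was 19.3, 18, 20 and 22.6 RPKM in Ad-LacZ and 20.2, 23.3, 24.6 and 27.8 RPKM in Ad-Cre, a difference of 0.25 (SE 0.11, limma adjusted p = 0.152). It was higher in 4 of 4 preparations, but the groups overlapped.

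RNA polymerase I subunits showed no call. Polr1a, its largest subunit, had a log2 fold change of -0.12 (SE 0.09, limma adjusted p = 0.386), and Polr1b, the other catalytic subunit, had 0.03 (SE 0.11, adjusted p = 0.859).

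The core proteins of box C/D snoRNPs, which guide methylation of rRNA, had 1 call. Nop56 was 9.84, 11.2, 14 and 13.1 RPKM in Ad-LacZ and 21.7, 18.8, 20.4 and 19.1 RPKM in Ad-Cre. Every Ad-Cre library exceeded every Ad-LacZ library, and the log2 fold change was 0.70 (SE 0.12, limma adjusted p = 0.00923). Its partner Nop58 was 7.47, 8.06, 8.54 and 9.47 RPKM and 4.98, 6.23, 9.55 and 8.14 RPKM, lower in 3 of 4 preparations and higher in M2. For Nop58 the log2 fold change was -0.22 (SE 0.13, adjusted p = 0.261). Fbl, the methyltransferase fibrillarin, had 0.19 (SE 0.08, adjusted p = 0.143), with no overlap between groups on the TMM-scaled values.

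The ratio of Nop56 to Nop58 within a library was 1.43 in Ad-LacZ and 2.85 in Ad-Cre (geometric means), a log2 difference of 1.00 seen in 4 of 4 preparations. The exact two-sided permutation test gave p = 0.0286, the smallest possible with 4 against 4, and 0.0524 after adjustment over 11 pairs of partners. It shuffled libraries freely between groups and did not use the pairing by preparation. Pairs were picked with the single-gene values known. Both genes host snoRNAs in their introns (5 in Nop56 and 4 in Nop58). Annotated exons cover 83.9% of the Nop56 gene and 31.6% of Nop58, so reads from intron-retaining Nop56 transcripts, where present, would count toward its value. The same limit holds for other members with a high exon share: Ppan (100%), Gnl3 (90.8%), Imp4 (90.0%) and Nip7 (77.2%). Intron retention was not measured.

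In box H/ACA snoRNPs, which guide pseudouridylation, Nhp2 was 8.47, 11.8, 12.9 and 7.79 RPKM in Ad-LacZ and 14.3, 13.4, 18.2 and 13.5 RPKM in Ad-Cre. The groups did not overlap, with a log2 fold change of 0.51 (SE 0.15, limma adjusted p = 0.0487) that passed in 4 of 12 alternative settings. Dkc1, the pseudouridine synthase dyskerin, was at -0.06 (SE 0.09, adjusted p = 0.666), and Gar1 at 0.22 (SE 0.16, adjusted p = 0.371). The Dkc1 to Nhp2 ratio went from 0.584 to 0.377 (exact permutation p = 0.0286, adjusted 0.0524) and was lower in Ad-Cre in 4 of 4 preparations.

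In the 40S pathway the protein specific to the U3 snoRNP, Rrp9, showed the largest rise of the set. Rrp9 was 3.57, 3.71, 4.7 and 3.37 RPKM in Ad-LacZ and 7.48, 6.26, 10.1 and 9.22 RPKM in Ad-Cre. All Ad-Cre values lay above all Ad-LacZ values, and the log2 fold change was 0.93 (SE 0.11, limma adjusted p = 0.00201). It was called in all 12 alternative settings. Imp4, which joins U3 to the pre-rRNA, was 2.92, 2.95, 3.13 and 2.76 RPKM and 4.39, 4.29, 4.48 and 4.54 RPKM, again without overlap, and rose by 0.46 on the log2 scale (SE 0.09, adjusted p = 0.0129).

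The other small subunit members had no call. Utp20, Noc4l, Heatr1 and Wdr43, components of the small subunit processome, lay between -0.01 (Wdr43) and 0.23 (Utp20). Bysl, an assembly factor, had 0.07 and Rrp12, an export factor, 0.30 (adjusted p = 0.189, and 0.0359 with the block). Nob1, the endonuclease that trims 18S rRNA, had -0.20 (SE 0.12, limma adjusted p = 0.308).

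Among 60S factors, Wdr74 was 16.2, 16.5, 18.8 and 15.9 RPKM in Ad-LacZ and 30.6, 25.3, 29.3 and 30 RPKM in Ad-Cre. Wdr74, which associates with pre-60S particles, rose by 0.74 on the log2 scale (SE 0.11, limma adjusted p = 0.0046), with no overlap. Nip7, a pre-60S factor, was 7.79, 8.22, 8.92 and 7.43 RPKM and 13.1, 12.1, 13 and 14.8 RPKM, and rose by 0.65 (SE 0.10, adjusted p = 0.00562). The Ad-Cre values of Nip7 were also all above those of Ad-LacZ. Nop2, a methyltransferase for large subunit rRNA, was 12.2, 13.5, 16.9 and 14 RPKM and 16.3, 16.8, 21.9 and 19.3 RPKM. On values scaled over all 16 libraries its groups did not overlap, though they did on the RPKM printed here. Nop2 rose by 0.37 (SE 0.09, adjusted p = 0.026), which passed in 7 of 12 alternative settings.

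Pes1, Bop1 and Wdr12 form the PeBoW complex of 60S maturation, and none was called. Pes1 was 20.9 ± 1.94 RPKM in Ad-LacZ and 25.8 ± 0.764 RPKM in Ad-Cre (SD, n = 4), and Bop1 was 14.7 ± 1.79 and 17.7 ± 0.873 RPKM. Their log2 fold changes were 0.29 (adjusted p = 0.118) and 0.25 (adjusted p = 0.152) in limma. Wdr12 was 2.25, 2.1, 2.35 and 2.41 RPKM in Ad-LacZ and 1.84, 1.75, 1.98 and 1.54 RPKM in Ad-Cre. For Wdr12 all 4 Ad-Cre libraries lay below all 4 Ad-LacZ libraries, at -0.24 (SE 0.10, limma adjusted p = 0.13). How many of all genes showed this pattern was not counted. The Pes1 to Wdr12 ratio was 9.16 in Ad-LacZ and 14.6 in Ad-Cre, higher in 4 of 4 preparations (exact permutation p = 0.0286, adjusted 0.0524). The Pes1 to Bop1 ratio was 1.42 and 1.46 (adjusted p = 0.886 in the exact permutation test).

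Of the other 60S and nucleolar members, Gnl3 (nucleostemin, a GTPase), Ppan, Nolc1 (a snoRNP chaperone) and Mybbp1a had log2 fold changes of 0.45, 0.42, 0.35 and 0.29. Their limma adjusted p-values were 0.152, 0.151, 0.0985 and 0.07 without the block, and 0.00872, 0.00917, 0.029 and 0.0455 with it. All were higher in 4 of 4 preparations. Nop16, Noc2l, Rrs1 and Ddx18 lay between 0.03 (Rrs1) and 0.21 (Nop16). The abundant nucleolar proteins Ncl (nucleolin) and Npm1 (nucleophosmin) had -0.06 and 0.25 (adjusted p = 0.769 and 0.231), and the helicase Ddx21 had 0.19. Npm1 has processed pseudogenes, so its reads may have been divided among copies.

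**Figure D2:**
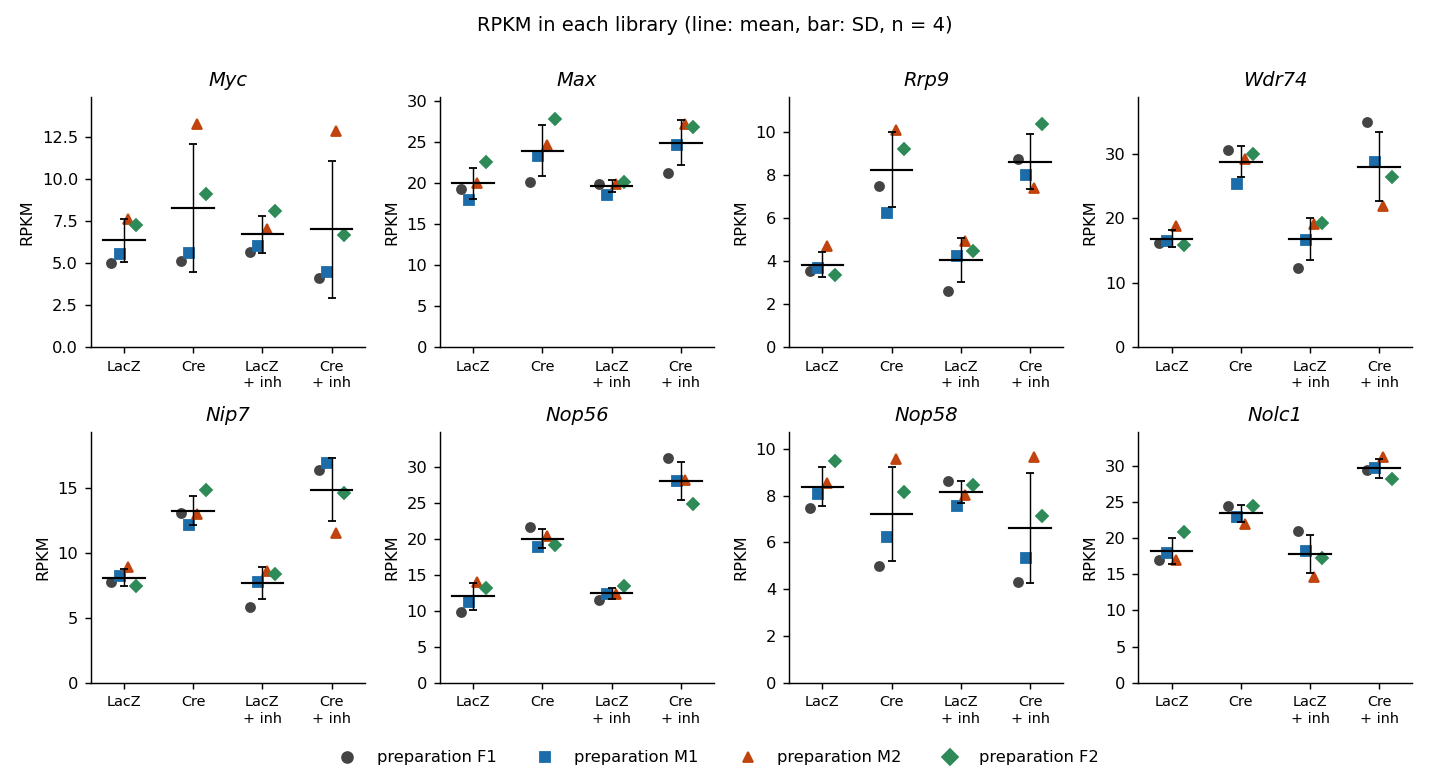
RPKM of Myc, Max, Rrp9, Wdr74, Nip7, Nop56, Nop58 and Nolc1 in each library of the 4 groups (axes start at 0), one symbol per preparation, with the mean as a line and the SD as a bar (n = 4). Rrp9, Wdr74, Nip7 and Nop56 separate by virus, Nop56 and Nolc1 are highest with Ad-Cre plus inhibitor, and Myc exceeds 10 RPKM only in the M2 libraries of the Ad-Cre groups.

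Some markers of non-endocrine cells moved in the same comparison. The 10 macrophage markers summed to 91 to 102 RPKM in Ad-LacZ and 98.8 to 264 RPKM in Ad-Cre, and 4 of them were called higher. The 8 fibroblast and stellate markers summed to 26.8 to 115 RPKM in Ad-LacZ and 23.4 to 707 RPKM in Ad-Cre, highest in M2, where Myc was also highest. None of the 5 tested was called. With inhibitor in both arms, the M2 sums were 531 RPKM (Ad-LacZ) and 156 RPKM (Ad-Cre). Myc in those 2 libraries was 7.06 and 12.9 RPKM. Without inhibitor, 1 of 4 duct markers tested was above 0 (median -0.21), as were 7 of 8 endothelial markers (median 0.22), none called. None of the 10 beta cell markers was above 0, with a median of -0.85 and 2 called lower. In F1 and M1 the fibroblast sums were 26.8 and 35.9 RPKM in Ad-LacZ and 23.4 and 33.9 RPKM in Ad-Cre, and the macrophage sums were 95.3 and 102 RPKM and 98.8 and 119 RPKM. The part of these cells in the result was not tested.

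Lists of further genes from these pathways were read from the same fit. In 4 lists of other ribosome biogenesis genes, 14 of 135 were called higher (10.4%) and 2 lower, with a median of 0.08. Of all genes tested, 7.14% were called higher and 9.4% lower. The small subunit list had 7 of 47 higher, led by Ngdn (0.70), Pno1 (0.58) and Rcl1 (0.52), and 1 lower, Dcaf13 (-0.48). The 60S list had 5 of 49 higher, led by Npm3 (1.00), Eif6 (0.83) and Ftsj3 (0.51). RNA polymerase I genes had 1 of 14 (7.14%, the same share as all genes), Polr1c (0.71), a subunit shared with RNA polymerase III. The snoRNP and exosome list had 1 of 25 higher (4%, below the share of all genes), Tcof1 (0.30), and 1 lower, C1d (-0.31).

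Other known MYC targets outside the nucleolus had 9 of 37 called higher (24.3%, beside 7.14% of all genes) and 1 lower, with a median of 0.22. The largest were the nucleoside diphosphate kinase Nme2 (1.17), Impdh2 of guanine nucleotide synthesis (1.09) and Odc1 of polyamine synthesis (0.83), while the RNA polymerase III subunit gene Polr3g fell by 0.71 on the log2 scale. In the network of MYC partners and antagonists, 0 of 13 were higher and 2 were lower: Mycbp2 (-0.60), a ubiquitin ligase, and Mga (-0.46), a MAX partner.  In the proliferation list, 5 of 18 were higher, led by Pcna (0.56), Mcm5 (0.54) and Mcm3 (0.53). Their median by preparation was F1 0.13, M1 -0.06, M2 0.54 and F2 0.29, largest where fibroblast markers were largest. With inhibitor in both arms the M2 median was 0.28, and there the fibroblast sum was lower with Ad-Cre.

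The same viruses were compared with the JNK inhibitor in both arms. In libraries labelled Ad-Cre + JNK inhibitor, 12 of the 36 genes rose (33.3%) and none fell, beside 10.1% of 11598 genes called higher and 10.5% called lower. They were Nop56, Rrp9, Nip7, Nolc1, Wdr74, Gnl3, Ppan, Nop2, Imp4, Noc2l, Mybbp1a and Max. On values scaled over all 16 libraries, groups did not overlap, with Ad-Cre higher, in 15 members (41.7%), beside 11.3% of all genes. The median log2 fold change was 0.28, and by preparation it was F1 0.34, M1 0.34, M2 0.42 and F2 0.16. On RPKM as deposited the median was 0.16, and all genes had -0.14. In that scaling 9 members were called higher (25%), beside 8.19% of all genes higher and 18.2% lower. These libraries are other cultures of the same preparations. Genes called in both comparisons numbered 6, which is 6 of the 7 called without inhibitor and 6 of the 12 called with it: Nop2, Nop56, Rrp9, Wdr74, Nip7 and Imp4. How many of all genes were called in both was not counted, so this overlap has no background share beside it.

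Nop56 had the largest difference, from 11.5, 12.4, 12.4 and 13.4 RPKM in Ad-LacZ + JNK inhibitor to 31.2, 28.1, 28.2 and 24.8 RPKM in Ad-Cre + JNK inhibitor. The lowest Ad-Cre value was far above the highest Ad-LacZ value, and the log2 fold change was 1.24 (SE 0.14, limma adjusted p = 0.000774). Nop58 stayed without a call at -0.20 (SE 0.19, adjusted p = 0.491), being lower in 3 of 4 preparations. The Nop56 to Nop58 ratio was 1.52 in Ad-LacZ + JNK inhibitor and 4.43 in Ad-Cre + JNK inhibitor (exact permutation p = 0.0286, adjusted 0.105).

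Rrp9 was 2.61, 4.24, 4.95 and 4.46 RPKM with Ad-LacZ and 8.74, 7.99, 7.42 and 10.4 RPKM with Ad-Cre, both with inhibitor, a log2 fold change of 1.06 (SE 0.14, limma adjusted p = 0.00155). Nip7 was 5.86, 7.77, 8.58 and 8.39 RPKM and 16.4, 16.9, 11.5 and 14.6 RPKM, a change of 1.00 (SE 0.15, adjusted p = 0.00323). In neither gene did the groups overlap. Together with Nop56 these were called in all 13 alternative settings. Wdr74 rose by 0.83 (SE 0.17, adjusted p = 0.0108), Nop2 by 0.58 (adjusted p = 0.00744) and Imp4 by 0.55 (adjusted p = 0.00954).

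Nolc1, which binds snoRNPs and shuttles between nucleolus and cytoplasm, was 21, 18.3, 14.6 and 17.3 RPKM with Ad-LacZ and 29.5, 29.7, 31.3 and 28.2 RPKM with Ad-Cre. The groups were well separated, with a log2 fold change of 0.84 (SE 0.19, limma adjusted p = 0.0132). Gnl3 had 0.77 (adjusted p = 0.0208), Ppan 0.67 (adjusted p = 0.00804), Noc2l 0.50 (adjusted p = 0.0324) and Mybbp1a 0.49 (adjusted p = 0.0177). Noc2l shares 20.9% of its exon bases with Samd11 on the opposite strand, and whether counting used strand is not given in the sources used here, so these reads cannot be assigned. Max was 19.9, 18.6, 19.9 and 20.2 RPKM and 21.2, 24.6, 27.2 and 26.8 RPKM, a change of 0.45 (SE 0.13, adjusted p = 0.0346, and 0.0549 with the block). Every Ad-Cre value of Max was above every Ad-LacZ value. Of 13 alternative settings, Ppan passed in 12, Nolc1 in 11, Mybbp1a in 10, Gnl3 in 8, and Noc2l and Max in 7.

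Myc was 5.68, 6.05, 7.06 and 8.14 RPKM in Ad-LacZ + JNK inhibitor and 4.11, 4.46, 12.9 and 6.67 RPKM in Ad-Cre + JNK inhibitor. It was higher with Ad-Cre in M2 and lower in F1, M1 and F2, and the log2 fold change over all 4 was 0.06 (SE 0.27, limma adjusted p = 0.899). Without M2 it was -0.26. Nhp2 (0.50, adjusted p = 0.0524), Pes1 (0.43, adjusted p = 0.0594) and Fbl (0.41, adjusted p = 0.055) lay just outside the threshold, and with the block Pes1 and Fbl passed (adjusted p = 0.0363 and 0.0344). Wdr12 was again lower in 4 of 4 preparations, at -0.22 (SE 0.12, adjusted p = 0.201).

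**Figure D3:**
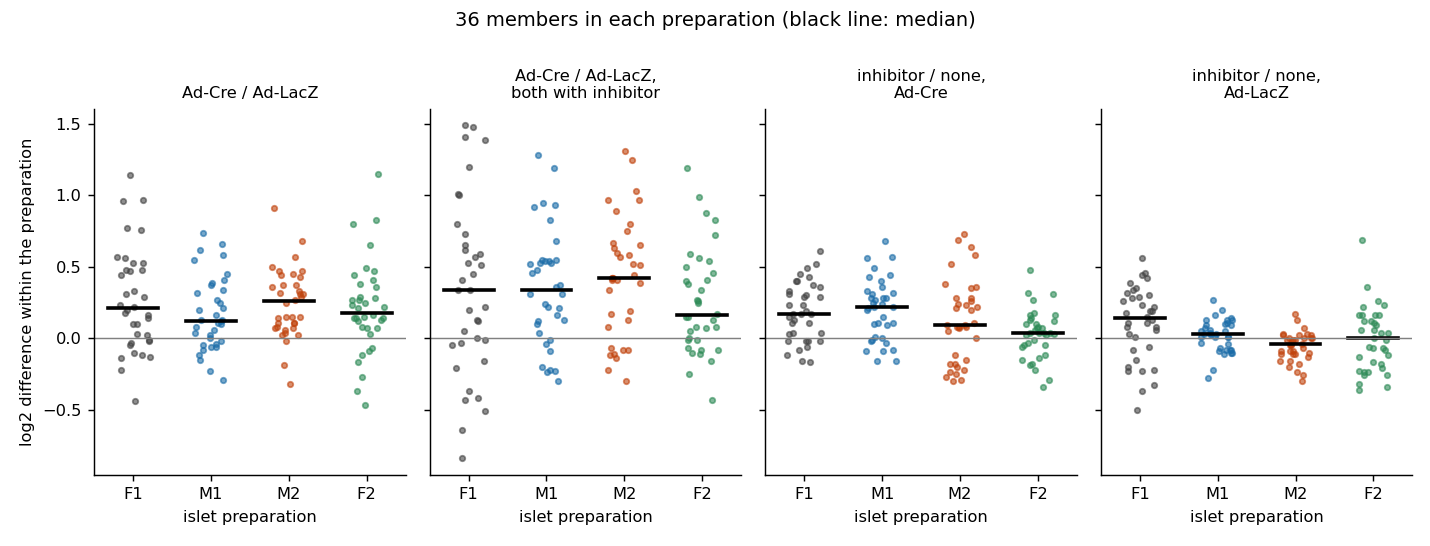
Log2 difference within each islet preparation for the 36 genes (points) with their median (black line), for both Ad-Cre comparisons and both inhibitor comparisons. Medians for Ad-Cre are above 0 in all 4 preparations, 0.12 to 0.26 without inhibitor and 0.16 to 0.42 with it, while the inhibitor in Ad-LacZ gives medians of -0.04 to 0.14.

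With inhibitor in both arms, macrophage markers did not separate the groups. Their sum was 174 to 367 RPKM with Ad-LacZ and 211 to 353 RPKM with Ad-Cre, and 0 of 10 were called. In Ad-LacZ without inhibitor this sum was lower, at 91 to 102 RPKM. The 8 duct markers did separate, summing to 449 to 973 RPKM with Ad-LacZ and 295 to 410 RPKM with Ad-Cre. Of the 4 duct markers tested, 1 was called higher and 1 lower. Fibroblast and stellate markers summed to 49.3 to 531 RPKM with Ad-LacZ and 28 to 156 RPKM with Ad-Cre, and 0 of the 7 tested were above 0. Of 10 beta cell markers 4 were called lower. Of 6 delta and PP cell markers 6 were above 0 (median 0.86, 1 called higher), as were 7 of 8 alpha cell markers (median 0.53) and 8 of 8 endothelial markers (median 0.34), none called. The part of these cells in the result was not tested.

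With inhibitor, too, members and all genes lost calls together without F2, M1 or F1, but not without M2. The count was 3 without F2 (8.33%, beside 1.87% of all genes higher) and 4 without M1 (11.1%, beside 2.18%). Without F1 the count was 10 (27.8%, beside 6.03%). Without M2 it stayed at 12 (33.3%), while the share of all genes called higher rose from 10.1% to 14.6%. The count was 9 when only the shallow Ad-Cre + JNK inhibitor library F2 was left out (25%, beside 6.76%). Among the other 133 ribosome biogenesis genes tested, 27 were called higher (20.3%) and 1 lower, with a median of 0.17. Of all genes tested, 10.1% were called higher and 10.5% lower. By list, 2 of 14 RNA polymerase I genes, 10 of 47 small subunit genes, 8 of 48 genes for 60S assembly and 7 of 24 snoRNP and exosome genes were higher. Other MYC targets had 11 of 36 higher and 3 lower, with a median of 0.43, and the proliferation list had 5 of 20 higher. The MYC network had 1 of 13 in each direction.

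**Figure D4:**
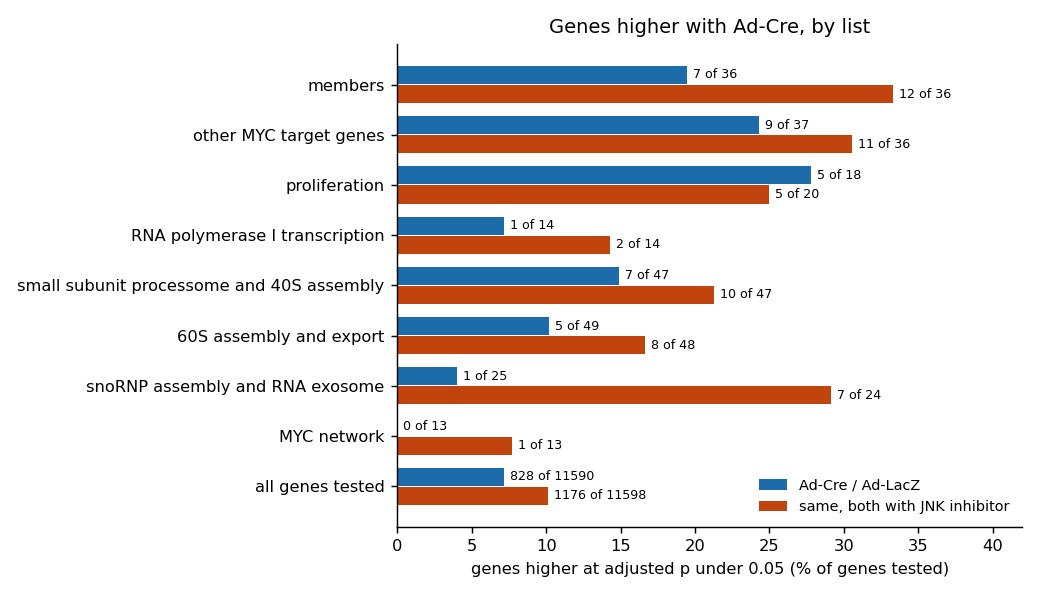
Share of genes called higher (adjusted p under 0.05, percent of genes tested) in each list for Ad-Cre against Ad-LacZ and for the same viruses with JNK inhibitor, with the counts beside the bars. The 36 members reach 19.4% and 33.3%, above all genes tested (7.14% and 10.1%), and the MYC network is at 0 of 13 and 1 of 13.

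The next comparison asked what the JNK inhibitor did in Ad-Cre cells. As a check of the inhibitor, Jun, which JNK activates and which drives its own gene, was 21.9 ± 6.72 RPKM in Ad-Cre and 9.57 ± 2.58 RPKM with inhibitor (SD, n = 4). Its log2 fold change was -0.95 (limma adjusted p = 0.207, and 0.0096 with the block), lower in 4 of 4 preparations. Of the 36 genes, 0 were called higher or lower in limma, where 0.00869% of all 11503 genes were called higher. At an unadjusted p, 4 members were higher (11.1%), beside 5.61% of all genes, and 0 were lower. These were Nop56, Nolc1, Fbl and Noc2l. With the replicate block, 2 members were called higher (5.56%), beside 4.66% of all genes, a share near the background.

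Those 2 were Nop56 and Nolc1. Nop56 was 20 ± 1.32 RPKM in Ad-Cre and 28 ± 2.61 RPKM in Ad-Cre + JNK inhibitor (SD, n = 4), without overlap, and its log2 fold change was 0.62 (SE 0.15). Its limma adjusted p was 0.292 without the block and 0.0184 with it. Nolc1 was 23.5 ± 1.22 and 29.7 ± 1.25 RPKM, with 0.48 (SE 0.14, adjusted p = 0.376, and 0.0368 with the block). Both were higher in 4 of 4 preparations. Fbl had 0.33 (adjusted p = 0.482) and Myc had -0.10 (SE 0.31, adjusted p = 0.979).

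The median over the 36 genes was 0.15, with 29 above 0. The level depended on the scaling: on RPKM as deposited the median of all genes was -0.14, the median of the members 0.01, and 19 members were above 0. Relative to all genes the members stood 0.16 higher with TMM scaling, 0.15 higher as deposited and 0.09 higher with quantile normalization. Cell type markers moved in the same comparison, with 8 of 8 alpha cell markers above 0 (median 0.51), 6 of 6 delta and PP cell markers (median 0.45) and 1 of 7 fibroblast and stellate markers (median -0.48), none of them called. Their part in the result was not tested. This comparison shares its Ad-Cre libraries with the first one and its Ad-Cre + JNK inhibitor libraries with the preceding one, so its values are not independent of either.

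In Ad-LacZ cells none of the 36 genes was called with the inhibitor. Few genes were called at all, so this does not show that the members were unchanged. Of 11657 genes tested 0.197% were called in either direction, and 0 members, and at an unadjusted p 0 members were below 0.05 beside 6.07% of all genes (limma). The log2 fold changes ran from -0.20 to 0.20, with a median of -0.01 and 17 above 0. The 3 largest in size were Nhp2 (0.20), Polr1b (-0.20) and Npm1 (0.18), and Myc had 0.07 (SE 0.11, adjusted p = 0.999). Jun was 20.8 ± 5.95 RPKM in Ad-LacZ and 9.68 ± 4.22 RPKM with inhibitor, at -1.08 (adjusted p = 0.155, and 0.0372 with the block). Marker sums also shifted between Ad-LacZ and Ad-LacZ + JNK inhibitor. Duct markers summed to 200 to 335 and 449 to 973 RPKM, and macrophage markers to 91 to 102 and 174 to 367 RPKM. Beta cell sums were 52128 to 85013 and 36196 to 61605 RPKM, and alpha cell sums overlapped (12960 to 19501 and 11185 to 22103 RPKM). Single markers and their part in the result were not tested here.

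Whether the Ad-Cre effect differed with inhibitor was tested as an interaction over all 16 libraries. No member passed at an adjusted p in limma, and 0 of 12274 genes did (207 higher and 177 lower at an unadjusted p). At an unadjusted p, 2 members were higher (5.56%), beside 1.69% of all genes: Nop56, with a log2 difference between effects of 0.55 (SE 0.18), and Nolc1, with 0.50 (SE 0.23). Both had an adjusted p of 0.999 in limma. The interaction of Nop56 was positive in 4 of 4 preparations and that of Nolc1 in 3 of 4. The larger number of genes called with inhibitor than without is therefore not shown to be a difference in effect. The median interaction of the 36 genes was 0.10, and -0.02 on RPKM as deposited, where all genes had -0.12. For Myc the interaction was -0.19 (SE 0.35, adjusted p = 0.999).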

How the data were processed

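RNA was measured in 16 libraries of 4 groups with 4 islet preparations each. The authors sequenced polyA libraries with paired ends, aligned the reads to the mouse genome (GRCm38 in the submitters' processing notes) and deposited RPKM for 25105 genes. The methods of the study cite STAR for the alignment. The annotation and strand setting are not given in the sources used here. Not used were 3 columns whose names match none of the sample labels. RPKM values are not counts, so no count model was fitted.

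A gene was tested if at least 4 of the compared libraries exceeded 1 RPKM, and all 36 members passed. Unweighted TMM factors (30% of ratios and 5% of levels trimmed) scaled the RPKM of the libraries compared. Counts of groups without overlap and differences within a preparation used RPKM scaled in this way over all 16 libraries. Log2(RPKM + 1) went into limma 3.58.1 (R 4.3.3, lmFit, then eBayes with a mean-variance trend), with the 8 libraries of the groups compared and no block. Fold changes are on this scale, which understates changes of low genes. P-values were Benjamini-Hochberg adjusted over all genes tested. Ratios of partner genes had exact two-sided permutation tests in scipy 1.17.1, which shuffled libraries without regard to preparation. The fit was tried on simulated libraries drawn independently with one fixed spread and no preparation effect, so this does not cover the pairing in the data. Depth came from RPKM times exon length (GENCODE annotation), which gave whole reads within 0.03 for 92.8 to 94.7% of low values per library.

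Preparation labels pair the libraries, since parallel cultures came from the same replicate. Residual correlations between libraries of one preparation were 0.488 to 0.72 for Ad-Cre against Ad-LacZ, 0.646 to 0.821 in the inhibitor comparison of Ad-Cre cells, 0.131 to 0.826 in that of Ad-LacZ cells, and 0.158 to 0.663 between viruses under inhibitor. The methods of the study name no block, and blocked values appear only beside results whose call or count they change.

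Promoters were taken from RefSeq (GRCm38.p6). Motifs and partner pairs were chosen after values were seen. Members and lists were chosen with earlier results of these data known, so lists have counts and medians but no test. Named were all members for Ad-Cre, members called or among the 3 largest changes and Myc elsewhere (Nop58, Nhp2, Wdr12 and Noc2l were added outside this rule after values were seen), up to 3 genes called in each direction per list, and Hspa5 and Jun. Alternatives covered the pseudocount (0.1), filters (0.1 RPKM, none), scaling, the fit and leaving out each preparation.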

Additional observations from a re-analysis of the deposited data

Results flagged for a closer look

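Within groups of 4 libraries, single values far from the other 3 by Dixon's test were found in 3 of 144 groups (2.08%), and chance marks about 1 in 20. Rrp12 was 6.15 RPKM in Ad-LacZ F2, while the other 3 Ad-LacZ libraries lay between 8.63 and 8.95 RPKM. Polr1b was 3.63 RPKM in the same library, with the others between 4.6 and 4.74 RPKM. Polr1b was 5.01 RPKM in Ad-Cre M2, with the others between 4.33 and 4.43 RPKM.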

How the results depend on the processing

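In Ad-Cre against Ad-LacZ, the number of members called higher was 7, and 12 with the replicate block. Leaving out one preparation at a time gave 1 to 5, where all genes called in either direction fell from 1917 to between 182 and 981. With inhibitor in both arms it was 12, and 3 to 12 when one preparation was left out (over all genes 2393, and 439 to 3377 with one left out). In the inhibitor comparison of Ad-Cre cells it was 0, 1 with all 16 libraries in one fit and 2 with the replicate block. On RPKM as deposited the median log2 fold change of the members was 0.01 for the inhibitor in Ad-Cre cells, 0.16 for Ad-Cre with inhibitor in both arms and -0.02 for the interaction, where all genes shifted as well. Signs changed only in values without a call. Myc with inhibitor in both arms was -0.06 as deposited and -0.26 to 0.21 when one preparation was left out (lowest without M2). For Ad-Cre against Ad-LacZ, leaving out one preparation gave -0.05 to 0.02 for Wdr43 and -0.00045 to 0.06 for Polr1b. Hspa5 for the inhibitor in Ad-Cre cells was -0.22 with quantile normalization. The causes were not tested. Rrp9 was called in all 12 alternatives without inhibitor, and Nop56, Rrp9 and Nip7 in all 13 with it, including one added after seeing the data that leaves out the shallow Ad-Cre + JNK inhibitor library F2. The block lost the call of Max and, beyond those given in the report, changed no other call of a member. Depth limits the members little, since each had at least 114 reads, but lengths of Nolc1, Rrp12, Wdr43, Wdr74, Bop1 and Gnl3 are approximate. No library carried Cre without floxed alleles, so effects of Cre itself and of recombination of Grp78 cannot be told apart.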
